A study of Homo sapiens with 6 samples.

Results

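The mitochondrial ribosomal protein genes are the nuclear genes named MRPL or MRPS with a number, which encode proteins of the large (MRPL) and small (MRPS) subunit of the ribosome inside mitochondria. They were chosen by name alone, with pseudogenes left out, which gave 78 of the 33007 genes measured. The mitochondrial ribosome translates the few messenger RNAs made from mitochondrial DNA, all of which encode membrane proteins of the respiratory chain and ATP synthase. Its 2 ribosomal RNAs, MT-RNR1 and MT-RNR2, come from mitochondrial DNA, whereas every one of its proteins is encoded in the nucleus, made in the cytosol and imported. Some of these proteins have a counterpart in bacterial ribosomes and others are found in mitochondria only.

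The cells were LM3, an established human hepatocellular carcinoma (HCC) cell line, labelled WT in all 6 samples. The 3 control samples carried the empty vector and the 3 knockdown samples a stably integrated short hairpin RNA against ZNF706, a small zinc finger protein, delivered by lentivirus with puromycin selection. Which hairpin was sequenced, and whether the lines were pools or clones, is not given in the sources used here. The labels do not say that the samples were separate cultures, so the p-values measure the spread between these samples, which may be technical. In one bulk cell line, a smaller number of expressing cells and less RNA per cell cannot be told apart.

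The total counts were 62684076, 64713764 and 63054445 in control cells and 68548419, 65861994 and 69057423 in knockdown cells. CPM values below are read counts scaled to a common library size, with the library sizes adjusted by TMM, a method that centres most genes at no change. The log2 fold changes are knockdown over control. A gene was called when the quasi-likelihood test of edgeR gave an adjusted p below 0.05, corrected over the 18390 genes that passed a filter on low counts; SE is the standard error of the fold change. ZNF706 itself had CPM values of 51.9, 55.1 and 54.7 in control cells and 33.5, 30.8 and 32.8 in knockdown cells. The fold change was -0.73 (SE 0.050, adjusted p = 3.7e-05) on the log2 scale, and the groups did not overlap. The label of the cells was checked against marker genes. The simple epithelial keratins KRT8 and KRT18 had FPKM values (counts scaled to gene length and library size) with means of 196 and 266 over the 6 samples, and vimentin (VIM) of 173. The other epithelial markers searched were low, with means of 0.66 for KRT19, 0.375 for CDH1 and 0.18 for EPCAM. The defining hepatocyte genes were low, with means of 2.17 for albumin (ALB), 0.65 for alpha-fetoprotein (AFP) and 0.097 for HNF4A. The albumin FPKM was 0.77, 3.54 and 3.57 in control cells and 2.17, 2.45 and 0.50 in knockdown cells, so that control replicate 1 and knockdown replicate 3 stood below the rest. AFP, TF, FGB, GPC3 and the epithelial marker EPCAM were lowest in the same samples. GPC3 was at 0.030 and 0 FPKM in these and between 0.46 and 0.80 in the other 4. Other hepatocyte genes did not follow this order. Knockdown replicate 3 had the highest APOA1 (1.59), APOA2 (1.37) and SERPINA1 (0.35) of the knockdown samples. Control replicate 1 had the highest HNF4A (0.23). COL1A2 was higher in control replicate 1 (0.15) and knockdown replicate 3 (0.14) than in the rest (at most 0.01). COL3A1 and ACTA2, from the same marker list, did not follow it. COL3A1 was at 0.69 in control replicate 1 and 0 in knockdown replicate 3, and ACTA2 was highest in knockdown replicate 2 (0.26). Results without control replicate 1 and knockdown replicate 3 are given below, and their part in the differences between samples was not tested. PTPRC, the marker of blood cells, reached 0.010 at most. Of the other markers, FN1 (log2 fold change 0.65), CD68 (0.64), CDH2 (0.49) and COL1A1 (0.20) were called higher, and SERPINA1 (-1.47) and APOB (-0.98) lower. The call of APOB was lost without control replicate 2 or 3 or knockdown replicate 1 or 3 (adjusted p = 0.066 to 0.087) and without a filter on low counts (0.075). Their part in the results below was not tested.

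All 78 genes were transcribed in these cells and all passed the filter, with between 192 and 16172 counts in a sample. On the FPKM scale, the median gene had a mean of 19.0, compared with 2.23 for the median of all genes tested, and 77 of the 78 stood above that median. The level is a mean over the 6 samples, and it differed 64.8-fold between the highest and the lowest gene, although the proteins occur mostly once per ribosome. The gene with the highest level was MRPL51, which encodes a mitochondria-specific protein of the large subunit, with FPKM values of 125, 125 and 129 in control cells and 135, 143 and 148 in knockdown cells. Next came MRPS35 (mean FPKM 103), MRPL12 (90.7), MRPS34 (87.1) and MRPL3 (71.1). MRPL12 encodes the protein that forms the flexible stalk where translation factors bind. The 5 lowest were MRPS33 (2.07), MRPL48 (3.36), MRPS6 (4.03), MRPL46 (4.52) and MRPS18C (5.66).

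This order rests on the gene length by which the authors divided. The length implied by counts and FPKM was between 1 and 1.2 times the union of all annotated exons in GENCODE release 29 for 68 of the 78 genes, with a median ratio of 1.14. Genes with long annotated exons therefore had a low FPKM at a given count. MRPL42, for example, has 16393 exonic bases in 10 annotated transcripts and a mean FPKM of 5.67, although its CPM values were 111, 111 and 117 in control cells and 95.9, 99.96 and 102 in knockdown cells. Exonic bases of 37 of the 78 genes are shared with another gene counted in these samples, on the same strand for 12. MRPL12 shares 68.2% of its exonic bases with AC139530.2 on its own strand, so its reads could have been split, and MRPL51 shares 31.3% with NCAPD2 on the opposite strand. Strand handling is not given in the sources used here.

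**Figure D1:**
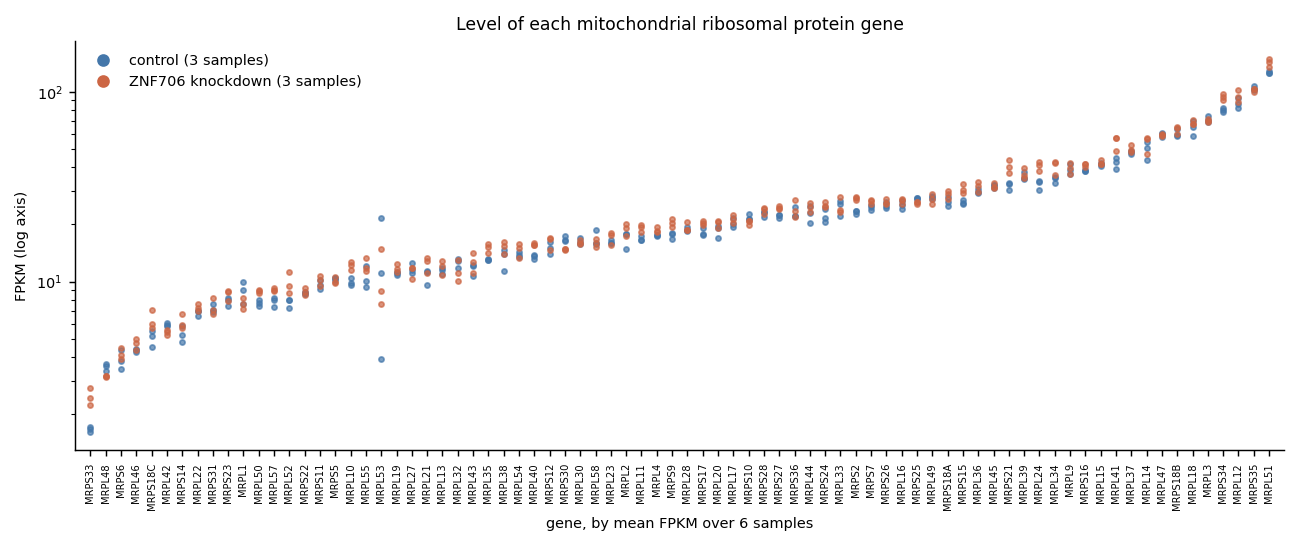
FPKM of each of the 78 genes (log axis) in the 3 control samples (blue) and the 3 ZNF706 knockdown samples (orange), ordered by the mean over the 6 samples. The points of a gene lie close together compared with the range from 2.07 to 134 between genes, and MRPL53 is the gene whose samples spread most.

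Between samples of one group most of these genes varied little. The median coefficient of variation of the CPM was 4.76% in the control group and 4.97% in the knockdown group. The exception was MRPL53, which encodes a mitochondria-specific protein of the large subunit, with CPM values of 3.10, 8.89 and 17.3 in control cells and 6.87, 11.4 and 5.86 in knockdown cells. Its samples differed several times over within a group, and the groups overlapped. MRPL53 shares 45.2% of its exonic bases with CCDC142 on its own strand. Its log2 fold change, -0.28, is the lowest of the 78 and had a standard error of 0.48 (adjusted p = 0.73), and without control replicate 3 it was 0.42.

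Knockdown of ZNF706 left most of these genes near their control level. Among the 78, 10 were called higher and 3 lower, 16.7% in all. Of all genes tested, 22.8% were called, 10.4% higher and 12.4% lower, so the share of mitochondrial ribosomal protein genes called was below that of all genes. This order turned with library size alone (29.5% compared with 23.2%), with the replicate block (24.4% and 23.7%) and without the low-count filter (11.5% and 9.55%). The median log2 fold change of the 78 was 0.042, compared with 0.0095 for all genes tested. Single samples moved it, to 0.011 without knockdown replicate 3, 0.017 without control replicate 1, 0.075 without control replicate 3 and 0.083 without knockdown replicate 1, while the median of all genes tested stayed between 0.0079 and 0.0099 with each sample left out. With the trend on transcript length removed the order turned, with 0.0056 for the 78 and 0.015 for all genes. Without both control replicate 1 and knockdown replicate 3, the samples low in ALB, AFP, TF, FGB and GPC3, the median of the 78 was -0.021 and that of all genes 0.011. In that fit, made after the data were seen, 3 of the 78 were called higher (MRPS33, MRPS2 and MRPL24) and 4 lower (MRPS30, MRPL42, MRPS25 and MRPL32), 8.97% compared with 15.1% of all genes tested. These 2 samples had the lowest and the highest median deviation of the 78 genes from their own means (-0.071 and 0.091 on the log2 scale). A lower median without them was therefore fixed in advance, and this fit cannot decide what the direction rested on. For 43 of the 78 (55.1%) the fold change was within 0.1 of 0 on the log2 scale, compared with 28.0% of all genes tested. For 66 (84.6%) it was within 0.2, compared with 50.5% of all genes. The genes compared were not matched by level, and the median FPKM was 19.0 for the 78 and 2.23 for all genes tested. A narrow range was not particular to the 78, whose quartiles were -0.022 and 0.15. They were -0.039 and 0.13 for nuclear oxidative phosphorylation genes and -0.12 and -0.0033 for cytosolic ribosomal protein genes. The 55 genes above 0 were 70.5% of the 78, and 51.3% of all genes tested were above 0. The most distant values from 0 in each direction were 0.52 for MRPS33 and -0.28 for MRPL53.

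The samples of a gene did not overlap between the groups for 25 of the 78 (32.1%), 19 higher and 6 lower, compared with 39.4% of all genes tested. All 13 called genes were among these 25. When a fold change of at least 0.3 on the log2 scale was asked for together with an unadjusted p below 0.05, 2 of the 78 were higher (MRPS33 and MRPL41) and 0 lower. By that rule 9.61% of all genes tested were higher and 5.88% lower. With an unadjusted p below 0.05 alone, 27 of the 78 were called by edgeR (34.6%), the same share as of all genes tested (34.6%). For 53 of the 65 genes that were not called, the fold change plus or minus 2 standard errors lay inside 0.3 on either side of 0. With 3 samples per group, the smallest two-sided p of an exact permutation test for one gene is 0.1.

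**Figure D2:**
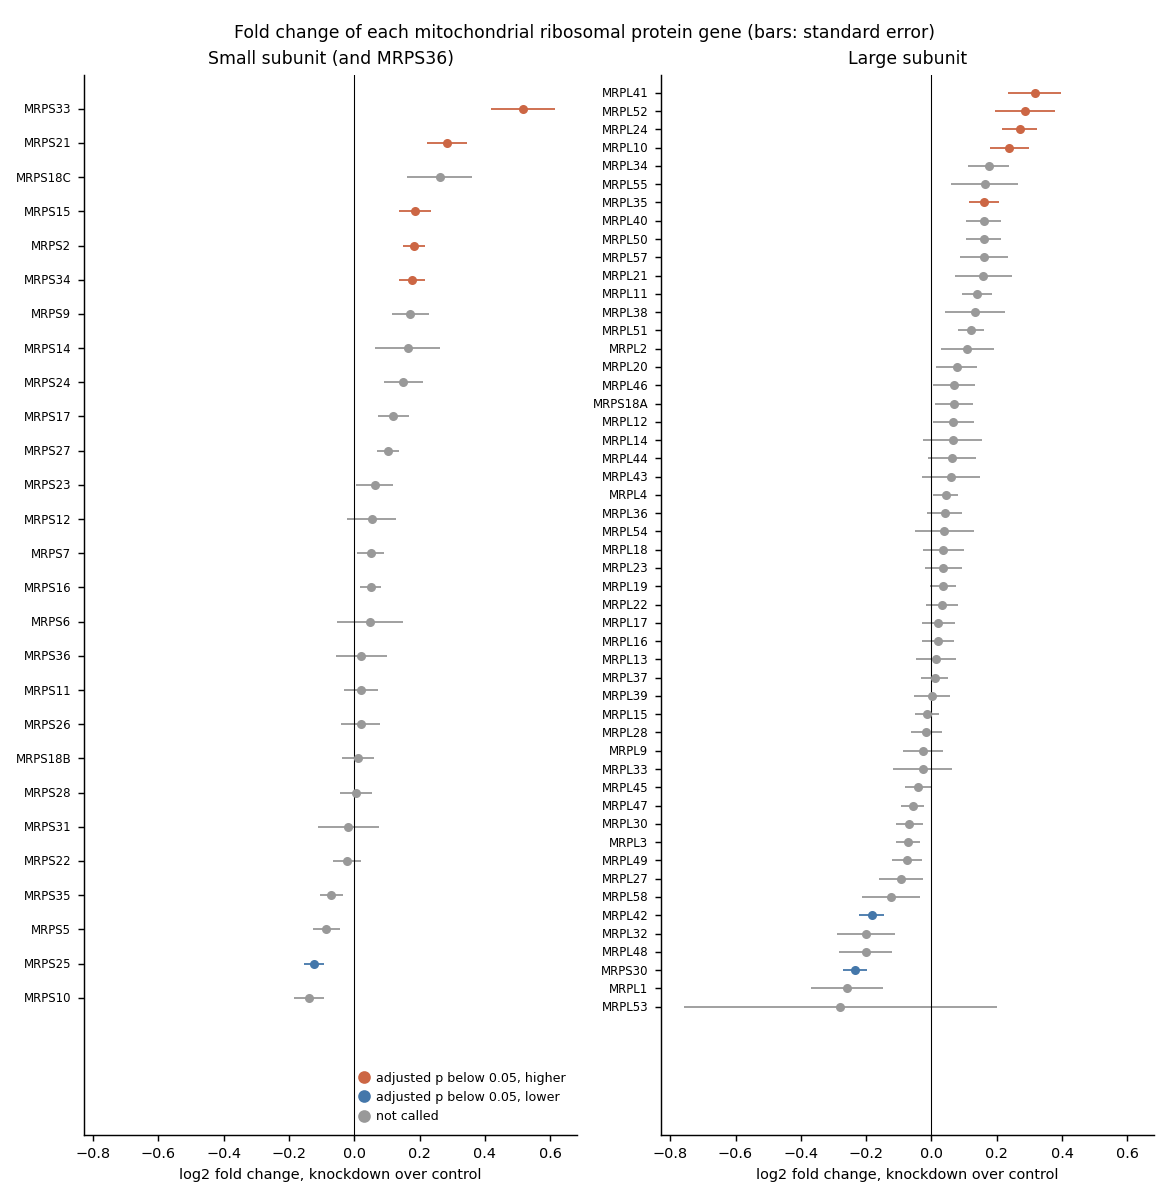
Log2 fold change (knockdown over control) of each gene with its standard error, for the small subunit with MRPS36 (left) and the large subunit (right). Most genes lie within 0.2 of 0, MRPS33 stands highest at 0.52, and the 3 genes called lower are MRPS30, MRPL42 and MRPS25.

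Genes called higher were in both subunits. Of the 26 small subunit genes, 5 were called higher and 1 lower (23.1% in all, compared with 22.8% of all genes tested), and the median log2 fold change was 0.052. Of the 51 large subunit genes, 5 were called higher and 2 lower (13.7%), with a median of 0.036. MRPS18A and MRPS30 are counted with the large subunit, where their proteins sit despite their names. MRPS36 was placed in neither, since its protein is now known as a part of the 2-oxoglutarate dehydrogenase complex, and its log2 fold change was 0.02 (adjusted p = 0.89). Of the 46 genes whose protein has a bacterial counterpart, 6 were called higher and 0 lower (13.0%, median 0.046). Of the 31 genes specific to mitochondria, 4 were called higher and 3 lower (22.6%, median 0.040). All 3 genes called lower thus encode mitochondria-specific proteins; a difference between these groups of genes was not tested.

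In the small subunit, MRPS33 rose most. It encodes a small mitochondria-specific protein (ENSG00000090263, GRCh38 chromosome 7, 141002610 to 141015228, minus strand), and its CPM values were 10.4, 10.2 and 10.02 in control cells and 13.3, 14.4 and 16.2 in knockdown cells. Every knockdown sample was above every control sample, and the control samples lay within a narrow range. The log2 fold change was 0.52 (SE 0.097, adjusted p = 0.0044), which is 43.1% above the control level. MRPS33 was also the gene with the lowest FPKM, so the largest relative change fell on the gene with the least signal per length. MRPS21 (ENSG00000266472), the counterpart of bacterial protein S21, had CPM values of 52.5, 56.8 and 58.1 in control cells and 62.8, 67.4 and 73.6 in knockdown cells, with a log2 fold change of 0.28 (SE 0.061, adjusted p = 0.0091). MRPS2, a protein with a bacterial counterpart at the junction of head and body, had values of 66.6, 67.6 and 65.8 in control cells and 76.1, 76.7 and 74.2 in knockdown cells, with a log2 fold change of 0.18 (SE 0.035, adjusted p = 0.0047). The groups were well apart for both genes, and MRPS2 had the smaller spread within groups.

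MRPS15, the counterpart of a bacterial protein that binds the small subunit's RNA early in assembly, had CPM values of 84.7, 86.5 and 89.8 in control cells and 93.8, 97.4 and 106 in knockdown cells, with a log2 fold change of 0.19 (SE 0.048, adjusted p = 0.021). MRPS34, a mitochondria-specific protein required for stability of the small subunit, had values of 98.5, 104 and 103 in control cells and 111, 115 and 119 in knockdown cells, with a log2 fold change of 0.18 (SE 0.040, adjusted p = 0.011). With the GC trend removed, MRPS34 was at 0.09 (adjusted p = 0.14), and over the 16 settings its adjusted p was between 0.0011 and 0.14. Both rose by less than MRPS21, and in both the gap between the groups was narrow compared with the level. The call of MRPS15 was lost without control replicate 1 (adjusted p = 0.077), control replicate 2 (0.076), knockdown replicate 2 (0.057) or knockdown replicate 3 (0.056). MRPS27, a pentatricopeptide repeat protein, lay just outside the threshold with a log2 fold change of 0.10 (SE 0.033, adjusted p = 0.0502).

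The small subunit gene called lower was MRPS25, a mitochondria-specific protein. Its CPM values were 169.6, 172 and 171 in control cells and 154, 157 and 159 in knockdown cells, with a log2 fold change of -0.12 (SE 0.032, adjusted p = 0.020). The groups did not overlap, and the gene fell by 8.20%. MRPS25 shares 22.2% of its exonic bases with NR2C2 on the opposite strand, and NR2C2 fell from a mean CPM of 176 to 142, a log2 fold change of -0.31 (adjusted p = 0.0014). The part of NR2C2 reads in the fall of MRPS25 was not tested. The call was lost without control replicate 2 (adjusted p = 0.067), control replicate 3 (0.054), knockdown replicate 1 (0.058) or knockdown replicate 2 (0.080), with library size scaling (0.15), with limma-trend (0.083 and 0.082 at pseudocounts 0.1 and 1) and with the length trend removed (0.066), and over the 16 settings the adjusted p was between 0.0084 and 0.15.

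In the large subunit, MRPL41 rose most. It is a mitochondria-specific protein (ENSG00000182154, GRCh38 chromosome 9, 137551199 to 137552555, plus strand), with CPM values of 26.3, 30.1 and 29.03 in control cells and 31.8, 37.2 and 37.3 in knockdown cells and a log2 fold change of 0.32 (SE 0.080, adjusted p = 0.019). Its transcript has the highest GC content of the called genes, 72.0% (median of all genes tested 48.7%), and with the trend of each library on GC content removed the log2 fold change was 0.17 (adjusted p = 0.14). The call was also lost without control replicate 1 (adjusted p = 0.070), control replicate 3 (0.051), knockdown replicate 2 (0.084) or knockdown replicate 3 (0.065), and the adjusted p over the 16 alternative settings was between 0.0019 and 0.14. MRPL52, another mitochondria-specific protein, had values of 29.5, 27.2 and 30.1 in control cells and 34.1, 31.3 and 40.5 in knockdown cells, with a log2 fold change of 0.29 (SE 0.092, adjusted p = 0.0498). Leaving out any sample other than knockdown replicate 2 ended this call, with adjusted p between 0.085 and 0.17 (control replicates 1, 2 and 3, knockdown replicates 1 and 3). It was also lost with the size factors of DESeq2 (0.051), without the low-count filter (0.14) and with the length trend removed (0.066).

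MRPL24, the counterpart of a bacterial protein near the exit of the peptide tunnel, had CPM values of 66.3, 65.5 and 60.6 in control cells and 72.5, 77.6 and 81.8 in knockdown cells. The knockdown samples were all above the control samples, and the log2 fold change was 0.27 (SE 0.053, adjusted p = 0.0054). MRPL10, which anchors the stalk, had values of 31.5, 30.8 and 33.9 in control cells and 35.9, 38.1 and 39.4 in knockdown cells, with a log2 fold change of 0.24 (SE 0.060, adjusted p = 0.018). Its call was lost without control replicate 1 (adjusted p = 0.063), control replicate 2 (0.078), knockdown replicate 2 (0.071) or knockdown replicate 3 (0.064). MRPL35, the counterpart of bacterial L35, had values of 57.5, 57.4 and 58.2 in control cells and 60.6, 65.5 and 67.6 in knockdown cells, with a log2 fold change of 0.16 (SE 0.046, adjusted p = 0.030). It was called without knockdown replicate 1 but not without any other sample, with adjusted p between 0.076 (without control replicate 3) and 0.11 (without knockdown replicate 2), and values of 0.086, 0.098 and 0.10 without control replicate 1, control replicate 2 and knockdown replicate 3.

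The most clearly lowered gene was MRPS30 (ENSG00000112996, GRCh38 chromosome 5, 44808925 to 44820428, plus strand), a mitochondria-specific protein of the central protuberance of the large subunit. Its CPM values were 117, 118 and 125 in control cells and 101, 102 and 103 in knockdown cells. The knockdown samples lay close together and all were below the lowest control sample. The log2 fold change was -0.23 (SE 0.037, adjusted p = 0.0019), so that the gene fell by 15.0%, with the lowest unadjusted p of the 78 genes (1.0e-04). Its transcript has a GC content of 34.5%, the lowest of the called genes, and with the GC trend removed the log2 fold change was -0.12 (adjusted p = 0.064). Over the 16 alternative settings its adjusted p was between 7.4e-06 and 0.064. MRPL42 (ENSG00000198015, GRCh38 chromosome 12, 93467488 to 93516213, plus strand), also specific to mitochondria, had a log2 fold change of -0.18 (SE 0.039, adjusted p = 0.0085), and its knockdown samples were all below the control samples. With the trend on GC content or on transcript length removed it was -0.10 in both cases (adjusted p = 0.15 and 0.24), with limma-trend it was -0.13 and -0.11 (adjusted p = 0.060 and 0.062 at pseudocounts 0.1 and 1), and over the 16 settings its adjusted p was between 0.0012 and 0.24.

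**Figure D3:**
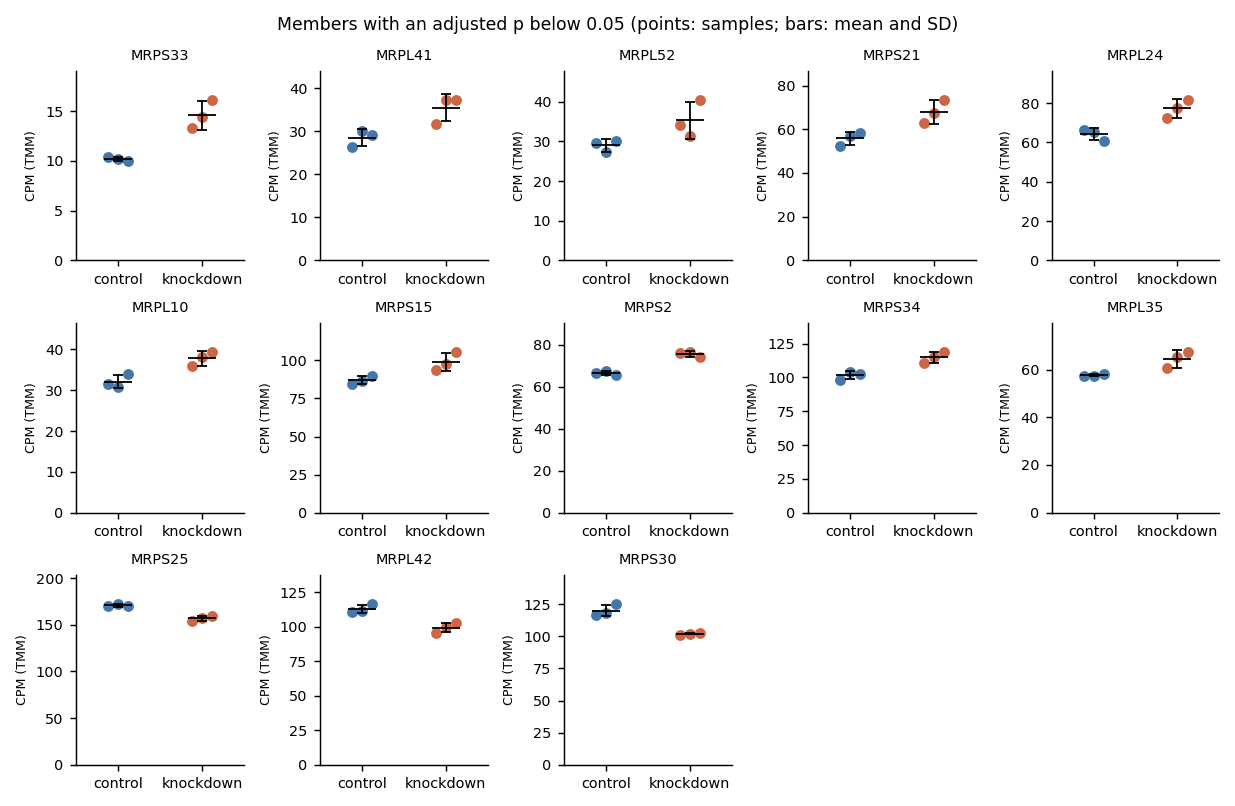
CPM of the 13 called genes in each sample (axes start at 0), with mean and SD of the 3 samples per group (control blue, ZNF706 knockdown orange). In every panel the groups are apart, and the distance is largest relative to the level for MRPS33, which rose by 43.1%, while MRPS25 fell by 8.20%.

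Of the 13 calls, 7 held when each of the 6 samples was left out in turn, 5 higher (MRPS33, MRPS2, MRPS21, MRPL24 and MRPS34) and 2 lower (MRPS30 and MRPL42). In all 16 alternative settings, 4 held, namely MRPS33, MRPS2, MRPS21 and MRPL24. Without both control replicate 1 and knockdown replicate 3, MRPS21 (adjusted p = 0.059) and MRPS34 (0.087), of these 7, lost their calls. The count of higher calls fell from 10 to 5 without control replicate 1 or knockdown replicate 3 and to 6 without control replicate 2 or knockdown replicate 2. Calls over all genes fell too, from 22.8% to 17.6% and 17.5% in the first pair of fits and to 16.4% and 13.9% in the second. Without the low-count filter, where 9.55% of all genes were called, MRPL41 (adjusted p = 0.064), MRPS15 (0.068), MRPL35 (0.082) and MRPL52 (0.14) lost their calls.

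In the functional regions of the large subunit, single genes were called. Among the 4 stalk genes, MRPL10 was called, and MRPL11, which binds beside it, differed by 0.14 on the log2 scale (adjusted p = 0.057) and was not called. MRPL12 had CPM values of 95.6, 101 and 109 in control cells and 99.3, 106 and 115 in knockdown cells, with overlapping groups and a log2 fold change of 0.07. MRPL1, which forms the mobile stalk at the other side, had values of 16.9, 14.4 and 19.01 in control cells and 13.99, 13.2 and 14.9 in knockdown cells, and its log2 fold change of -0.26 had an adjusted p of 0.13. Among the 5 genes at the tunnel exit and the side facing the inner membrane, MRPL24 was called, while MRPL22, MRPL23, MRPL44 and MRPL45 had log2 fold changes between -0.04 (MRPL45) and 0.06 (MRPL44). Of the 7 genes of the central protuberance, MRPS30 was called lower. The others had log2 fold changes of 0.16 (MRPL40), 0.16 (MRPL55), 0.13 (MRPL38), 0.07 (MRPL46), 0.04 (MRPL18) and -0.20 (MRPL48), with adjusted p of 0.060 or more. Among neighbours in the ribosome, values above and below 0 thus stood side by side.

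MRPS18A, MRPS18B and MRPS18C are 3 related genes for proteins of the S18 family, of which the first is built into the large subunit and the other two into different places of the small subunit. On the FPKM scale MRPS18B had the highest mean (62.0), followed by MRPS18A (27.6) and MRPS18C (5.66). None of the 3 was called by edgeR, and the unadjusted p was below 0.05 for MRPS18C alone. MRPS18C had CPM values of 25.4, 29.04 and 31.3 in control cells and 31.1, 32.8 and 38.8 in knockdown cells, with overlapping groups, and a log2 fold change of 0.26 (SE 0.099, adjusted p = 0.088). The values were 0.07 for MRPS18A and 0.01 for MRPS18B. Of the exonic bases, 47.0% of MRPS18A are shared with RSPH9 and 40.2% of MRPS18C with ABRAXAS1, on the opposite strand in both cases.

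The summed level of the 78 genes differed more between samples of a group than between the groups. It was 5009, 5168 and 5326 CPM in control cells and 5082, 5277 and 5494 CPM in knockdown cells, and the groups overlapped. The large subunit genes summed to 3109, 3210.1 and 3329 CPM in control cells and 3117, 3275 and 3411 CPM in the knockdown samples. The small subunit genes summed to 1860.1, 1918 and 1952 CPM and to 1926, 1961 and 2036 CPM. Control replicate 1 was low and knockdown replicate 3 high in each of these sums. The median deviation of the 78 genes from their own mean over the samples ranged from -0.07 (control replicate 1) to 0.09 (knockdown replicate 3) on the log2 scale. Its SD between samples of a group, pooled over both groups, was 0.059. That is the spread of single samples, whereas the median fold change of 0.042 compares groups of 3 samples.

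The scaling set part of this picture. TMM factors were between 0.974 and 0.988 in control cells and between 1.01 and 1.02 in the knockdown samples. Without them, that is with counts scaled by library size alone, the median of all genes tested was 0.063 and that of the 78 genes was 0.096. The 78 genes then took 0.495%, 0.508% and 0.519% of the counts in control cells and 0.520%, 0.537% and 0.557% in the knockdown samples, without overlap. With that scaling 21 were called higher and 2 lower, so that rises were 91.3% of the calls, compared with 76.9% with TMM. Rises among the calls of all genes tested went from 45.5% with TMM to 64.4% with library size alone. Relative to all genes tested, the 78 genes were above the median by a similar small amount with both scalings.

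**Figure D4:**
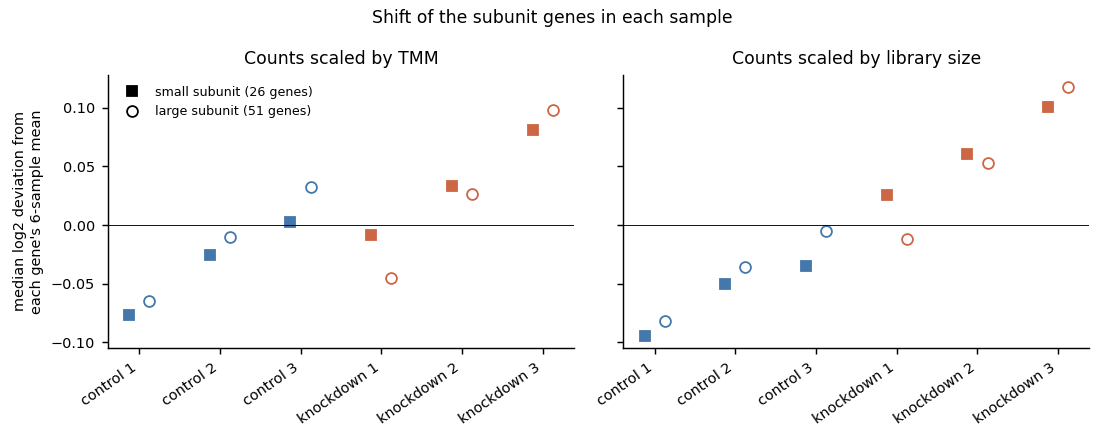
Median log2 deviation of the small subunit genes (squares) and the large subunit genes (circles) from each gene's mean over the 6 samples, with counts scaled by TMM (left) and by library size alone (right), in control (blue) and ZNF706 knockdown samples (orange). With TMM the groups overlap for both subunits, and with library size alone knockdown replicate 1 lies below control replicate 3 for the large subunit but above all control samples for the small subunit.

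Both kinds of subunit gene are transcribed in the nucleus, often from promoters with a GC-rich start region and no TATA box. Factors known to act at genes for mitochondrial proteins are NRF1, the ETS family factor GABPA, YY1, SP1 and MYC with its partner MAX. The RefSeq promoter windows (GRCh38.p14, 250 bases before to 50 after a start site) held 69 of the 78 genes. MRPL2, MRPL10, MRPL13, MRPL15, MRPL21, MRPL23, MRPL35, MRPS28 and MRPS36 had no entry. Both strands were searched for letters typical of each factor, and none of the 5 motifs contains another. The ETS letters CCGGAAG were in 30 of the 69 windows (43.5%), compared with 12.2% of all 27305 genes with a window and 21.0% of the 11360 of these that were tested. AAGATGG, part of the YY1 motif, was in 24 (34.8%), compared with 7.11% and 9.07%. In 17 of these (24.6% of the 69) it was read forward within the 50 bases after the start site, compared with 2.09% and 3.98%. The letters AAGATGG contain ATG, and whether these matches lie at the start of a coding sequence was not tested. Both motifs were in 9 windows (13.0%), compared with 0.989% and 1.91%. The E-box CACGTG, bound by MYC with MAX, was in 9 (13.0%), compared with 8.77% and 12.4%. The NRF1 core CGCATGCG was in 3 (4.35%), compared with 2.46% and 4.31%. The GC box GGGCGG, bound by SP1, was in 42 (60.9%), compared with 48.3% and 74.6%. The shares were thus above those of tested genes for the ETS and YY1 letters, near them for the E-box and the NRF1 core and below them for the GC box, and no test was made of this.

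Of the 13 called genes 11 have a window, and of these 4 held the ETS letters, 3 the YY1 letters, 2 an E-box, 6 a GC box and 0 the NRF1 core. The following stretches of 30 bases show such matches in called genes, on the strand of the gene, with every match to the motif named in capitals and those to other motifs in lower case (a motif on the other strand reads as its reverse complement, CTTCCGG for ETS and CCGCCC for the GC box). They were picked after the values were seen. The first 4 hold ETS matches near the start site of genes that rose (chr7:141014934-141014963, chr1:150293839-150293868, chr16:1773145-1773174 and chr14:22829871-22829900).
MRPS33: agagggcgggcCTTCCGGgacgagggcgcg
MRPS21: cgtaatttccgCTTCCGGtagtgagaaccc
MRPS34: gacaccggcctCTTCCGGtgaCTTCCGGcc
MRPL52: ggccacgcctaCTTCCGGctaccccggcta
The next 3 hold the YY1 letters, in MRPL52, whose call was lost with most single samples left out (chr14:22829812-22829841) and in the 2 large subunit genes that fell (chr5:44808949-44808978 and chr12:93467511-93467540).
MRPL52: aacccagattcAAGATGGcgacttcctgct
MRPS30: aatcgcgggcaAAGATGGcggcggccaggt
MRPL42: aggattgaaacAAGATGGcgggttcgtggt
The last 3 are the E-boxes of 2 genes that rose (chr7:141014763-141014792 and chr9:135499897-135499926) and 2 overlapping ones of the 8 GC boxes of MRPL41 (chr9:137551768-137551797).
MRPS33: gctcgggcggttCACGTGcatcacacaaat
MRPS2: cgacggccaggtCACGTGactggggagcga
MRPL41: gcgagccCCGCCCCGCCCcgcgcgctcctc
A match is a description of the window and no evidence that a factor binds there.

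The factors that bind such letters were themselves measured. Of 15 regulators of mitochondrial biogenesis, 9 were called lower and 1 higher, and the median log2 fold change was -0.17. That is 66.7% called, compared with 22.8% of all genes tested. NRF1 had CPM values of 23.9, 24.1 and 24.6 in control cells and 16.4, 17.2 and 17.8 in knockdown cells, without overlap, and a log2 fold change of -0.50 (SE 0.070, adjusted p = 0.0010). GABPA had values of 77.7, 84.3 and 75.96 in control cells and 66.5, 65.3 and 66.8 in knockdown cells, with a log2 fold change of -0.26 (SE 0.044, adjusted p = 0.0027), whereas GABPB2, one of the partner subunits of GABPA, was higher (0.38, adjusted p = 0.012). YY1 had values of 213, 220.1 and 225 in control cells and 197, 192 and 194 in knockdown cells, with a log2 fold change of -0.17 (SE 0.034, adjusted p = 0.0052). MAX (-0.31), SP1 (-0.16) and MYC (-0.15, adjusted p = 0.023) were called lower too, as were ATF5 (-0.31), ATF4 (-0.30) and the coactivator PPRC1 (-0.22). The call of MYC was lost without control replicate 2 or 3 or knockdown replicate 1 or 2 (adjusted p = 0.071 to 0.093), with library size alone (0.10), without the low-count filter (0.055) and with limma-trend (0.078 and 0.077). That of ATF5 was lost without control replicate 1 or 3 or knockdown replicate 1 or 3 (adjusted p = 0.058 to 0.079), with library size alone (0.052) and without the low-count filter (0.054). Thus the messenger RNAs of 9 of the 15 regulators were lower in the same samples in which the 78 genes had a median change of 0.042. With library size alone, 7 regulators were called lower and 1 higher (median -0.12).

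The RNA partners of these proteins were lower. MT-RNR2, the ribosomal RNA of the large subunit, had CPM values of 4889.8, 4817 and 4428 in control cells and 3474, 3509.9 and 3466 in knockdown cells, a log2 change of -0.44 (SE 0.035, adjusted p = 6.7e-05). MT-RNR1, the ribosomal RNA of the small subunit, had values of 519, 536 and 454 in control cells and 418, 428 and 437 in knockdown cells and a log2 fold change of -0.23 (SE 0.055, adjusted p = 0.014), and its call was lost without control replicate 1 or 2 or knockdown replicate 2 (adjusted p = 0.051 to 0.059), without the low-count filter (0.061) and with limma-trend (0.070 at either pseudocount). In both genes every knockdown sample was below every control sample, while the summed CPM of the protein genes overlapped between the groups for either subunit. Of the 15 genes of mitochondrial DNA tested, 8 were called lower and 0 higher, with a median of -0.15. That is 53.3% called, compared with 22.8% of all genes tested. MT-ND6 (-0.38) and MT-ND1 (-0.36), both subunits of complex I, fell most after MT-RNR2. With library size alone, 7 were called lower and 1 higher (median -0.098), and limma-trend on FPKM called 3 lower. How RNA was selected for the libraries is not given in the sources used here, so the counts of the ribosomal RNAs cannot be read as their level in the cell.

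Genes for other ribosomal proteins and for assembly of the mitochondrial ribosome were measured beside the 78. The 5 measured ribosomal proteins that carry other names were DAP3 (0.10, adjusted p = 0.073), CHCHD1 (0.23, 0.12), GADD45GIP1 (0.11, 0.28), AURKAIP1 and PTCD3. AURKAIP1 had CPM values of 60.4, 66.98 and 64.98 in control cells and 71.97, 72.8 and 78.3 in knockdown cells and was called higher (0.21, adjusted p = 0.013), and PTCD3 was called lower (-0.11, adjusted p = 0.037). The call of PTCD3 was lost without control replicate 1, 2 or 3 or knockdown replicate 2 or 3 (adjusted p = 0.064 to 0.13), and also with library size alone (0.29), with limma-trend (0.21 at either pseudocount) and with the GC (0.20) or length trend (0.28) removed. That of AURKAIP1 was lost with the GC trend removed (0.16). Of 27 assembly factors and RNA modifying enzymes, 3 were called higher and 1 lower (median -0.0047). That is 14.8% called, compared with 22.8% of all genes tested. MRM1, which methylates MT-RNR2, rose with CPM values of 7.64, 6.39 and 7.53 in control cells and 8.85, 11.1 and 10.6 in knockdown cells, with a log2 fold change of 0.50 (SE 0.12, adjusted p = 0.016). Its call was lost without control replicate 2 or knockdown replicate 2 or 3 (adjusted p = 0.055 to 0.074). RBFA, an assembly factor of the small subunit, was called higher (0.28), a call lost without control replicate 1 or 3 or knockdown replicate 1, 2 or 3 (adjusted p = 0.062 to 0.11), without the low-count filter (0.059), with the replicate block (0.053) and with the length trend removed (0.079). C1QBP, a matrix protein needed for mitochondrial translation, was called higher too (0.18) but not without control replicate 2 (adjusted p = 0.052). MALSU1, an assembly factor of the large subunit, had values of 42.5, 40.8 and 46.5 in control cells and 33.6, 37.2 and 35.9 in knockdown cells and fell, with a log2 fold change of -0.28 (SE 0.063, adjusted p = 0.010).

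Of 20 translation factors, 5 were called higher and 0 lower (median 0.039). That is 25% called, near the 22.8% of all genes tested. SLIRP, which binds mitochondrial messenger RNAs together with LRPPRC, had CPM values of 52.7, 56.1 and 56.5 in control cells and 64.9, 69.2 and 74.1 in knockdown cells, with a log2 fold change of 0.33 (SE 0.053, adjusted p = 0.0020). TUFM, the elongation factor that brings transfer RNAs to the ribosome, had values of 309, 302 and 313 in control cells and 357, 362 and 379 in knockdown cells, with a log2 fold change of 0.25 (SE 0.034, adjusted p = 0.00090). GATC, a subunit of the enzyme that makes glutaminyl-tRNA in mitochondria, rose by 0.30 on the log2 scale (adjusted p = 0.026), with overlapping groups, a call lost without control replicate 2 or 3 or knockdown replicate 1 or 3 (adjusted p = 0.073 to 0.10) and without the low-count filter (0.10). Of 19 mitochondrial aminoacyl-tRNA synthetases, 7 were called higher and 1 lower (42.1% in all, median 0.14). HARS2, for histidine, rose most among those called, with values of 52.3, 52.5 and 56.7 in control cells and 65.8, 65.9 and 69.3 in knockdown cells and a log2 fold change of 0.32 (SE 0.045, adjusted p = 0.0011). EARS2, for glutamate, was next (0.23), but its call was lost without control replicate 1, 2 or 3 or knockdown replicate 2 or 3 (adjusted p = 0.067 to 0.16), without the low-count filter (0.096) and with the GC trend removed (0.063). The fold changes of VARS2 (0.57, adjusted p = 0.079) and PARS2 (0.44, adjusted p = 0.057), for valine and proline, were larger and not called. GARS1, which serves the cytosol as well as mitochondria, was called lower (-0.16, adjusted p = 0.0076), a call lost with library size alone (0.052) and with limma-trend (0.062 at either pseudocount). With library size alone, 7 translation factors and 9 synthetases were called higher and 0 of either list lower. With each sample left out, 3 or 4 translation factors and 4 to 7 synthetases were called higher, the fewest synthetases without control replicate 2 or 3 or knockdown replicate 2.

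Of 19 genes for mitochondrial transcription and RNA processing, 4 were called higher and 3 lower (median -0.00086). That is 36.8% called, compared with 22.8% of all genes tested. POLRMT, the mitochondrial RNA polymerase, had CPM values of 58.8, 60.3 and 65.1 in control cells and 74.2, 74.6 and 73.8 in knockdown cells, with a log2 fold change of 0.27 (SE 0.044, adjusted p = 0.0019). Both of its partners at mitochondrial promoters were lower. TFAM, which also packages mitochondrial DNA, had values of 172, 168 and 167 in control cells and 151, 147 and 145 in knockdown cells, with a log2 fold change of -0.19 (SE 0.034, adjusted p = 0.0032), and TFB2M one of -0.22 (adjusted p = 0.0022). FASTKD5, which processes mitochondrial messenger RNAs, had a value of -0.33 (adjusted p = 0.0062). HSD17B10 (0.18), a subunit of mitochondrial ribonuclease P, and TBRG4 (0.15) were among those called higher. The call of HSD17B10 was lost without control replicate 1 or 2 or knockdown replicate 2 (adjusted p = 0.059 to 0.075) and that of TBRG4 without control replicate 1 or 3 or knockdown replicate 2 or 3 (adjusted p = 0.069 to 0.11). With the GC trend removed both were lost (0.051 and 0.067), and TBRG4 also without the low-count filter (0.084). The list had 1 gene called higher without knockdown replicate 2 and 2 without any 1 of the control samples.

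Other large gene families stand beside the 78 genes as a measure. Of 65 nuclear genes for oxidative phosphorylation, 8 were called higher and 1 lower (13.8% in all, compared with 22.8% of all genes tested). Their median was 0.049, close to the 0.042 of the mitochondrial ribosomal protein genes. The median was -0.0082 without knockdown replicate 3 (5 higher, 3 lower) and 0.0085 without control replicate 1 (5 higher, 1 lower), and 0.10 with library size alone (20 higher, 1 lower). The higher count was 4 without control replicate 2 or knockdown replicate 2 and 12 without knockdown replicate 1. NDUFC1 (0.36), NDUFB10 (0.33) and ATP5F1D (0.30) rose most among those called and kept their calls with each sample left out. COX6C was called lower (-0.23), a call lost without control replicate 2 or 3 or knockdown replicate 1 or 2 (adjusted p = 0.051 to 0.075), without the low-count filter (0.063) and with the GC trend removed (0.060). Of 85 tested cytosolic ribosomal protein genes, 1 was called higher (RPS26, 0.16) and 8 lower (10.6% in all), with a median of -0.057. RPL13A (-0.20), RPL21 (-0.20) and RPL15 (-0.17) had the lowest values among those called. Single samples decided these calls. The number called lower was 0 without control replicate 2 or knockdown replicate 2, 1 without control replicate 3 or knockdown replicate 1, 10 without control replicate 1 and 22 without knockdown replicate 3, and with the replicate block it was 28. The call of RPS26 was kept only without knockdown replicate 1 among the 6 samples left out. Without the low-count filter and with limma-trend, 0 were called lower. The direction of the cytosolic family depended on the scaling, since with library size alone 6 were higher and 1 lower (median -0.0033). No difference between the families was tested.

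**Figure D5:**
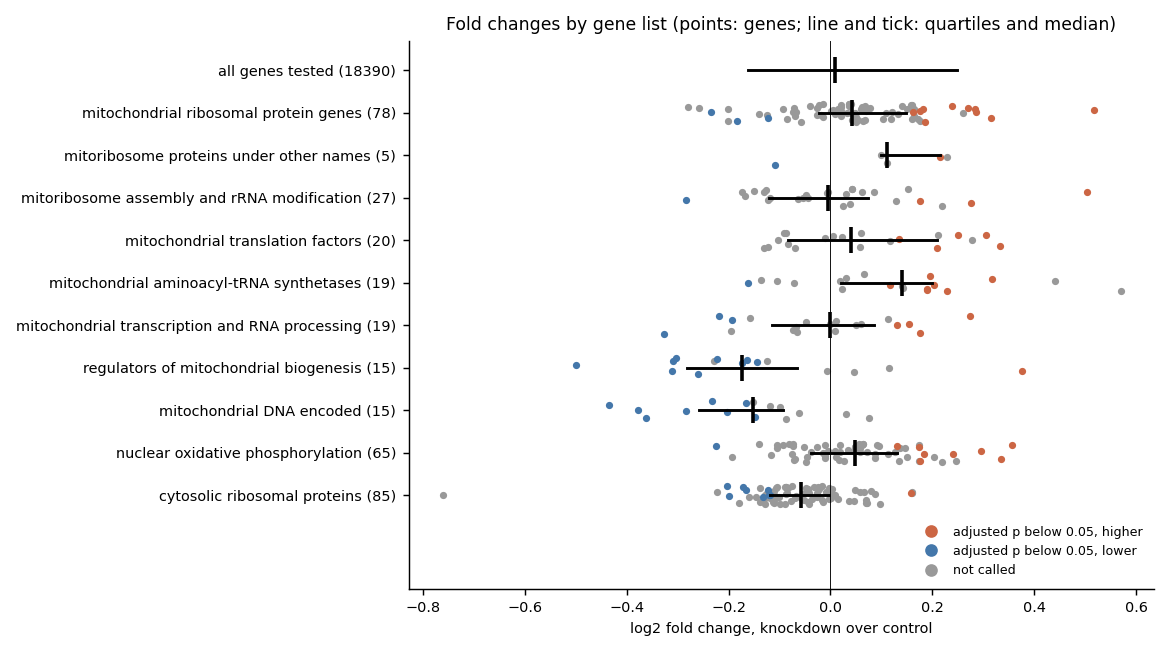
Log2 fold changes (knockdown over control) of the genes of each list, with quartiles (line) and median (tick), and of all genes tested (quartiles and median only); numbers in brackets are genes tested. The mitochondrial ribosomal protein genes centre at 0.042, the regulators of mitochondrial biogenesis at -0.17 and the genes of mitochondrial DNA at -0.15.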

How the data were processed

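RNA-seq of 3 control and 3 ZNF706 knockdown samples was analysed. The authors trimmed reads (cutadapt 1.9 in the submitters' notes, with FastQC), mapped them to GRCh38 with HISAT2 and deposited raw counts per gene and FPKM values divided by gene length and depth. The counting program, annotation release and strand setting are not given in the sources used here. The table's positions overlapped those of GENCODE release 29 for 99.98% of 32092 shared genes. After filterByExpr and TMM scaling, groups were compared with the quasi-likelihood functions glmQLFit and glmQLFTest in edgeR 4.0.16 (R 4.3.3), with the group as sole term and Benjamini-Hochberg adjustment over 18390 genes. A standard error (SE) is the size of the log2 fold change over the root of the F statistic. The script was tested on simulated data.

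Alternatives were DESeq2 1.42.0, its size factors in edgeR, library size alone, no filter, a minimum mean count of 50, a replicate block, each sample left out, limma-trend (limma 3.58.1) on log2(FPKM + 0.1) and log2(FPKM + 1) where the mean FPKM was 1 or more, and each library's loess trend on GC content or transcript length (span 0.3) removed. The genes, lists and tests were chosen with earlier results of these data known. Named are ZNF706 and MYC, all called members, the 5 highest and 5 lowest by FPKM, the structural groups given whole, and at most 3 called genes a direction in each other list. Those outside this rule, MRPL53, MRPL32, MRPS27, MRPS36, ATF4, PPRC1, GABPA, YY1, SP1, VARS2, PARS2, MT-RNR1, NR2C2 and the overlapping genes, were picked after their values were seen. Windows of 30 bases are shown in place of whole promoters. A gene that the rule names is not reported here.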

Additional observations from a re-analysis of the deposited data

How the results depend on the processing

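The number of genes called higher (10) was 21 with library size alone, 6 without the low-count filter, 16 with a mean count of at least 50, 21 with limma-trend on FPKM at either pseudocount, and 5 to 12 with each sample left out. Of all genes, 23.2%, 9.55%, 31.5% and 33.5% to 33.6% were called in the first of these settings and 13.9% to 18.0% with a sample left out, compared with 29.5%, 11.5%, 25.6%, 28.2% and 10.3% to 17.9% of the 78. The number called lower (3) was 1 with limma-trend at either pseudocount, 1 with the GC trend removed, 5 with the length trend removed, and 2 to 4 with each sample left out. With the GC trend removed, 16.7% of the 78 and 21.4% of all genes were called, and with the length trend removed 20.5% and 23%. With a fold change of at least 0.3 and an unadjusted p below 0.05, the higher count (2) was 6 with library size alone, 6 and 4 with limma-trend (pseudocounts 0.1 and 1), 1 with the length trend removed, and 1 to 6 with each sample left out, and the lower count (0) was 1 with the length trend removed and 0 to 2 with each sample left out. The replicate block gave 16 higher and 3 lower, 24.4% of the 78 compared with 23.7% of all genes. Samples of the same number did not deviate together (correlations 0.034, -0.036 and -0.016). With 3 samples a group this cannot exclude a pairing, and the labels do not state one. The median log2 fold change of the 78 genes was between 0.0056 (length trend removed) and 0.096 (library size alone) under the 16 alternatives. Without both control replicate 1 and knockdown replicate 3, a choice made after seeing the data, the median was -0.021, with 3 higher and 4 lower by adjusted p and 1 and 1 by the fold change of at least 0.3. DESeq2 called 15 higher and 3 lower, 23.1% of the 78 compared with 28.5% of all genes. Its size factors in edgeR gave 9 and 3, 15.4% compared with 23% of all genes.

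Of the 86 genes tracked under the 16 alternatives, 62 were called, and no value of these changed sign. Among genes not called, MRPL12 was -0.022 with the GC trend removed, MRPL23 -0.034 with the GC trend and -0.021 with the length trend removed, MRPL18 -0.023 and MRPS18B -0.042 with the length trend removed, and MRPL45 0.013 with library size alone and 0.0074 and 0.0072 with limma-trend, MRPL53 0.028 and 0.00073 with limma-trend, and MRPS36 -0.042 with the length trend removed. With each sample left out, the ranges were -0.038 to 0.11 for MRPL18, -0.00055 to 0.064 for MRPL22, -0.0043 to 0.10 for MRPL23, -0.013 to 0.14 for MRPL44, -0.71 to 0.42 for MRPL53, -0.061 to 0.085 for MRPS36 and -0.021 to 0.056 for MRPS18B. The cause of these changes was not tested. The counts behind MRPS33, between 615 and 1132, and the 3 samples a group limit how small a change could be called.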
